A study of Mus musculus with 4 samples.

Results

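The probes described here carry, in place of a gene symbol, the name of a sequenced mouse cDNA clone: an accession that starts with AK followed by digits. They were chosen by that name alone, from the gene name column of the scanner files, and controls were left out. There are 298 such probes for 285 clones, among 55681 non-control probes on the array, and 11 clones have more than 1 probe. RNA came from regulatory T cells (Tregs), the CD4 T cells that restrain immune responses under the transcription factor Foxp3, of male C57BL/6 mice that were wild-type (WT) or deltaDC, a genotype that the labels do not spell out. Cells from spleen and thymus of 3 mice per genotype were pooled per genotype and sorted as DAPI-negative CD4+ CD25+ cells, a gate that does not use Foxp3. The 4 groups, WT and deltaDC spleen and WT and deltaDC thymus, have 1 array each. Values given as a run of 4 stand in this order. The questions were whether the clones follow the named gene at the same place in the genome, and in which clones the WT spleen array is the brightest.

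Such clones come from efforts to sequence full-length cDNAs from many mouse tissues, and a clone keeps its accession as a name where no gene symbol was attached when the array was designed. A clone of this kind can be a long non-coding RNA, an extended end of a known transcript, a piece of unspliced RNA primed at an internal run of A, or a transcribed repeat. Simple repeats such as runs of GAA or GT lie in many places of the mouse genome, so a probe that holds one can pair with RNA from many loci.

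Of the 298 probes, 178 carry the description of an unclassifiable transcript and 74 that of a hypothetical protein. The sequences that bear most on the results are those of clone probes that are nearly all A and G (purines) and were brightest on WT spleen. Of these 4 clones, 2 are shown as 30-base pieces of the 60-base probes, 5′ to 3′ as listed in the files, with the longest tandem repeat in capitals. A GT repeat clone with a WT spleen margin below 2-fold and probes listed under 3 gene names that hold the same GAA run follow for comparison.
AK146780 (chr14:94684325-94684384, minus strand): AGAAGAAGAAGAAGAAGAAGAAGAAGAAGA
AK080285 (chr10:89001547-89001606, plus strand): GAAGAAGAAGAAGAAGAAGAAGAAGAAGAA
AK149306 (chr3:84388313-84388371, plus strand): GTGTGTGTGTGTGTGTGTGTGTtacttgag
Pigr probe: AGAAGAAGAAGAAGAAGAAGAAGAAGAAGA
Gcm1 probe: GAAGAAGAAGAAGAAGAAGAAGAAGAAGAA
Rhox8 probe: AGAAGAAGAAGAAGAAGAAGAAGAAGAAGA

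Probes without such a repeat are shown next because they carry the other results: the pair of WT spleen clones with mixed sequence, a clone that ran with its neighbouring gene, and a clone that was lower on WT spleen. Capitals mark a polyadenylation hexamer (AATAAA) where a piece holds one. All positions are those of the array files, on mouse build mm9.
AK054031 (chr14:28097418-28097477, plus strand): ttgttaagttccagttttattacagtggaa
AK041257 (chr8:41449303-41449362, plus strand): ttagaaggtacggggcatcagtttgcctgg
AK160358 (chr11:100914373-100914432, plus strand): atttctcctggtgatcttctcagaagtcag
AK079713 (chr12:102252936-102252995, plus strand): ctgaactattaccAATAAActcggaatctg

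Between 48.7% and 50.7% of all spots were well above background on the 4 arrays, and the 75th percentile of signal ran from 340 on WT spleen to 418 on deltaDC thymus. All 6 Treg genes checked (Foxp3, Il2ra, Ctla4, Ikzf2, Cd4 and Cd3e) were well above background on every array, with Foxp3 at signals from 9283 to 11360. The summed signal of 4 natural killer cell genes was 2399 (WT) and 27283 (deltaDC) in spleen and 7814 and 8376 in thymus, and that of 4 neutrophil genes was 32.0, 9137, 196 and 989. Their part in the clone results was not tested, and in pooled RNA fewer cells of a type cannot be told apart from less RNA per cell. With 1 array a group no difference between 2 arrays can be tested, and the number of arrays limits the precision. The error given with a difference is the repeat-spot error, the SD expected from repeated spots of 1 probe at that signal, which holds no variation between animals or labellings.

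A smaller share of the clone probes than of all spots was well above background, and clones first isolated from thymus were so most often. In spleen 121 of 298 (40.6%) were well above background on the WT and 124 (41.6%) on the deltaDC array, and in thymus 127 (42.6%) and 131 (44.0%). Of the 298 probes, 112 (37.6%) were above background on all 4 arrays, 33 on 1 to 3 arrays and 153 on none. Of all 55681 non-control probes, 24585 were above background on all 4 arrays. Of 37 clones from thymus libraries 24 (64.9%) were above background on all 4 arrays, against 32 of 96 (33.3%) from nervous system or eye and 8 of 27 (29.6%) from testis. Activated spleen libraries gave 7 of 17 (41.2%) and dendritic cell or macrophage libraries 3 of 7 (42.9%).

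**Figure D1:**
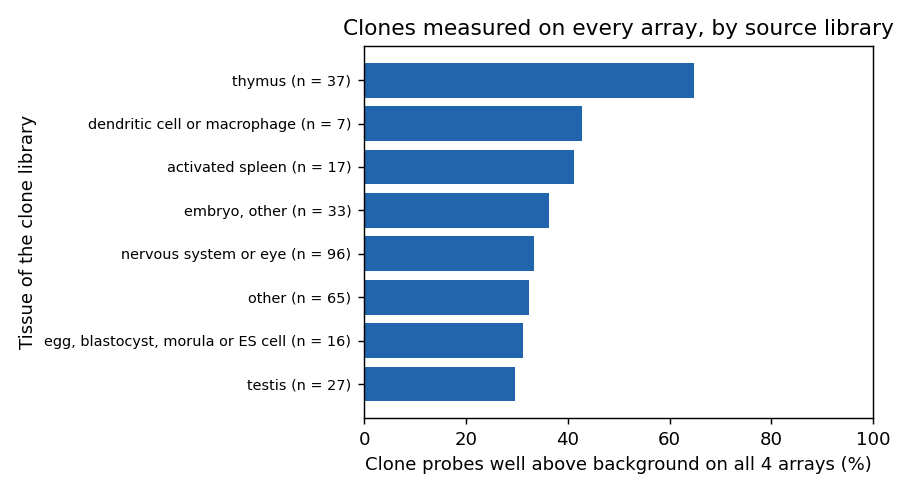
Share of clone probes well above background on all 4 arrays (horizontal axis, %), by the tissue of the library each clone came from (vertical axis, with the number of probes). Thymus libraries stand at 64.9%, and the other sources lie between 29.6% and 42.9%.

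The 5 clones with the highest mean signal were AK132033, AK149306, AK203298, AK135063 and AK134484, and none of them was 2-fold different in any comparison. AK132033 read 79650 (WT) and 110660 (deltaDC) in spleen and 74284 and 94862 in thymus, so deltaDC was above WT in each organ, after scaling by 0.27 ± 0.07 and 0.31 ± 0.07. The GT repeat clone AK149306 read 45798, 37811, 46682 and 40909, and AK134484, described as holding a retroviral integrase domain, 17894, 19211, 25012 and 23690. A probe's brightness also depends on its sequence, so these signals do not rank the clones by abundance.

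In the comparison of deltaDC with WT spleen, clones were lower on the deltaDC array more often than other probes, and none was 2-fold higher. At least 2-fold lower were 16 of the 115 clone probes above background on both arrays (13.9%), against 3.54% of all 25626 probes measured there. At least 2-fold higher were 0 of 115, against 4.29% of all probes. The clones' median log2 difference was -0.43 and that of all probes -0.07, and 89 of the 115 clones were below 0. With normexp background correction the lower clones numbered 7 and the higher 0, where 1.02% of all probes were lower and 2.40% higher. Some clones were above background on only 1 of the arrays. Of all 298 clone probes, 7 were bounded in this way at 2-fold or more above WT and 6 at 2-fold or more below it. Of all 55681 probes it was 854 and 861.

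The same direction was seen in other probes of little annotation and not in probes of RefSeq mRNAs. For 842 measured probes of cDNA clones that do carry a symbol the median was -0.32 and 7.60% were at least 2-fold lower, and for 4911 non-coding probes known by position the median was -0.25 and 7.66% were lower. The 15577 mRNA probes had a median of -0.002, with 5.90% at least 2-fold higher and 1.86% lower. At mean signals of 200 to 1000 the medians were -0.43 for 37 clones and 0.007 for 4398 mRNA probes, and at 1000 to 10000 they were -0.61 for 17 clones and 0.010 for 5889. Above 10000 the 10 clones had a median of 0.11. The clones' lower median was thus present at equal brightness, except among the brightest.

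**Figure D2:**
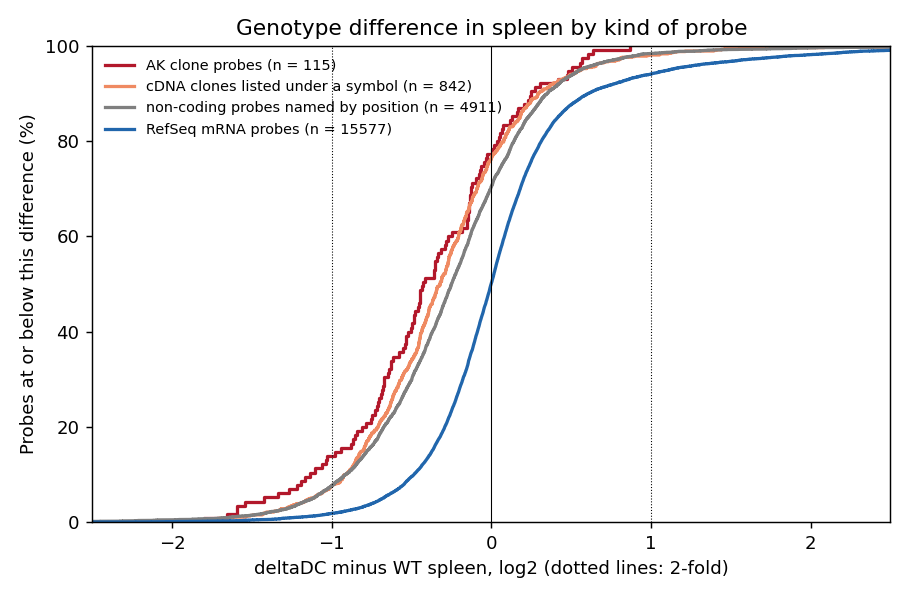
Cumulative share of probes (vertical axis, %) by log2 difference of deltaDC minus WT spleen (horizontal axis), for probes above background on both arrays; dotted lines mark 2-fold. The curve of the 115 clone probes lies to the left of that of the 15577 mRNA probes, with medians of -0.43 and -0.002.

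Of 112 clones above background on every array, WT spleen was the brightest array for 57 (50.9%), against 38.6% of all 24585 such probes and 30.9% of mRNA probes. The share was 52.7% for non-coding probes known by position and 57.9% for cDNA clones under a symbol, so it was not particular to the AK clones. At least 2-fold above every other array on WT spleen were 6 clones (5.36%), against 1.07% of all probes, and at least 2-fold below every other array there were 0, against 1.57%. On WT thymus 2 clones were at least 2-fold above every other array (0.118% of all probes), and on deltaDC spleen and deltaDC thymus 0 were, against 1.66% and 0.167%.

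The 6 clones at least 2-fold above on WT spleen fall into 4 whose probes are nearly all purine and 2 with mixed sequence; of the 4, AK146780 and AK080285 hold a simple repeat among those searched. AK146780, from an embryonic heart library, read 21094 (WT) and 6997 (deltaDC) in spleen and 8960 and 6111 in thymus. AK148702, from sympathetic ganglion, read 7377, 2812, 2977 and 2522, and AK080285, from neonatal thymus, 3478, 1488, 1627 and 1403. WT spleen stands well above the 3 other arrays in these clones. Their log2 differences of deltaDC minus WT spleen were -1.79 ± 0.08, -1.59 ± 0.08 and -1.43 ± 0.08 (repeat-spot error). Between the thymus arrays the differences of these clones were -0.59, -0.28 and -0.25, so WT was above deltaDC there too, by less. AK013651, the fourth purine clone, read 557, 266, 321 and 222, a difference of -1.27 ± 0.11. It shares an accession with a probe listed under Gcm1, a transcription factor of the placenta. The clone is placed on chr8, and the probe listed under Gcm1 that shares 20 bases with it on chr5.

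These probe sequences recur elsewhere on the array. A run of 20 bases of AK146780 also stands in 52 probes at other places, on 18 chromosomes, and 41 of these 52 were themselves at least 2-fold above every other array on WT spleen. For AK080285 it was 39 of 47 sharing probes measured on all arrays, for AK148702 4 of 5 and for AK013651 2 of 5. The median differences of deltaDC minus WT spleen in these sharing probes were -1.49, -1.48, -1.52 and -1.11. Such probes can take up the same RNA, so they are not independent of the clones or of each other. The GT repeat of AK149306 stands in 76 other probes, of which 0 were at least 2-fold above on WT spleen. WT spleen was still the brightest array for 56 of the 76, where it was for 38.6% of all probes. The median difference of the 76 was -0.35.

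The share of A and G in the probe was therefore set against the WT spleen margin for all probes; this feature, the motifs and the limits were chosen after the sequences of these clones had been seen. Of 59 probes on the array that are at least 85% purine and above background on all arrays, all 59 were brightest on WT spleen, 34 of them by at least 2-fold, with a median difference of -1.37 in spleen and of -0.20 between the thymus arrays. Among the 30 of them without GAAGAAGAAGAA or GAGAGAGAGAGA, 9 were above by at least 2-fold, and the median spleen difference was -0.89. The 4 clones in this set are the 4 described above. Of 10539 probes with 45% to 55% purine, 37.0% were brightest on WT spleen and 0.702% by at least 2-fold. The motif GAAGAAGAAGAA, searched on the listed strand, stands in 68 probes (0.122% of all), 63 of them above background on all arrays, and 47 of these were at least 2-fold above on WT spleen. Its reverse complement TTCTTCTTCTTC stands in 5 probes, of which 0 were above background on all arrays. GTGTGTGTGTGT, on the same strand, stands in 113 probes, with 0 of 110 at least 2-fold above, though 64 of the 110 were brightest on WT spleen.

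**Figure D3:**
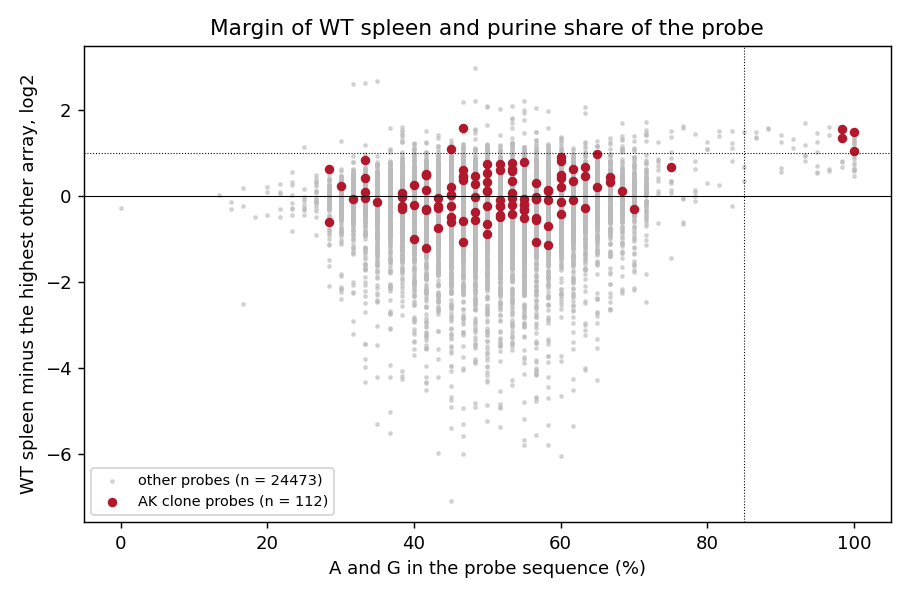
WT spleen minus the highest other array (vertical axis, log2 after scaling) against the share of A and G in each probe (horizontal axis, %), for 112 clone probes and 24473 others above background on all arrays; the dotted lines mark 2-fold and 85%. All probes beyond 85% purine lie above 0, the 4 clones among them above the 2-fold line.

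The lower values on deltaDC spleen were not limited to probes with the simple repeats searched or with shared 20-base runs. Other kinds of repeat were not searched for. Among the 101 clones measured on both spleen arrays that hold none of the simple repeats searched and share no 20 bases with a distant probe, 10 were at least 2-fold lower, 0 higher, 78 were below 0 and the median was -0.36. Of all probes measured there, 3.54% were at least 2-fold lower, 4.29% higher and 57.6% below 0. Clones without a polyadenylation hexamer (AATAAA or ATTAAA) in the probe had a median of -0.45 (n = 90), and those with one -0.14 (n = 22), among clones above background on all arrays. The hexamer stands in 18.1% of the clone probes, 17.3% of mRNA probes and 13.7% of all probes. The cause of the difference between these clones was not tested.

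Of the clones with mixed sequence that were above background on all 4 arrays, AK054031 had the largest margin on WT spleen. This clone of an oviduct library read 1924 (WT) and 732 (deltaDC) in spleen and 334 and 217 in thymus. Both spleen arrays were above both thymus arrays, and in each organ WT was above deltaDC. The deltaDC minus WT difference was -1.60 ± 0.10 in spleen and -0.66 ± 0.11 in thymus, and WT thymus was lower than WT spleen by -2.78 ± 0.10. No probe of a RefSeq mRNA lay within 100 kb of it on its strand. AK041257, from aorta and vein, read 284, 145, 158 and 153, so that only WT spleen stood out, at a difference of -1.17 ± 0.15 in spleen.

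The other clones at least 2-fold lower on deltaDC spleen came from thymus and other libraries. Among clones above background on all arrays, 4 of 24 from thymus libraries were at least 2-fold lower, beside 14 of 112 from all sources. AK037423, from a thymus library, read 436 and 219 in spleen and 296 and 237 in thymus, WT first, and AK137931, also from thymus, 218, 117, 137 and 96.8. AK013505, from hippocampus, read 832, 378, 1137 and 592, so that WT exceeded deltaDC in both organs, with differences of -1.34 ± 0.11 in spleen and -0.98 ± 0.10 in thymus. It lies on the strand opposite to Fam122a. AK144914, AK050857, AK138907 and AK158955 were dim, with no signal above 55.2, and their errors reached 0.45.

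**Figure D4:**
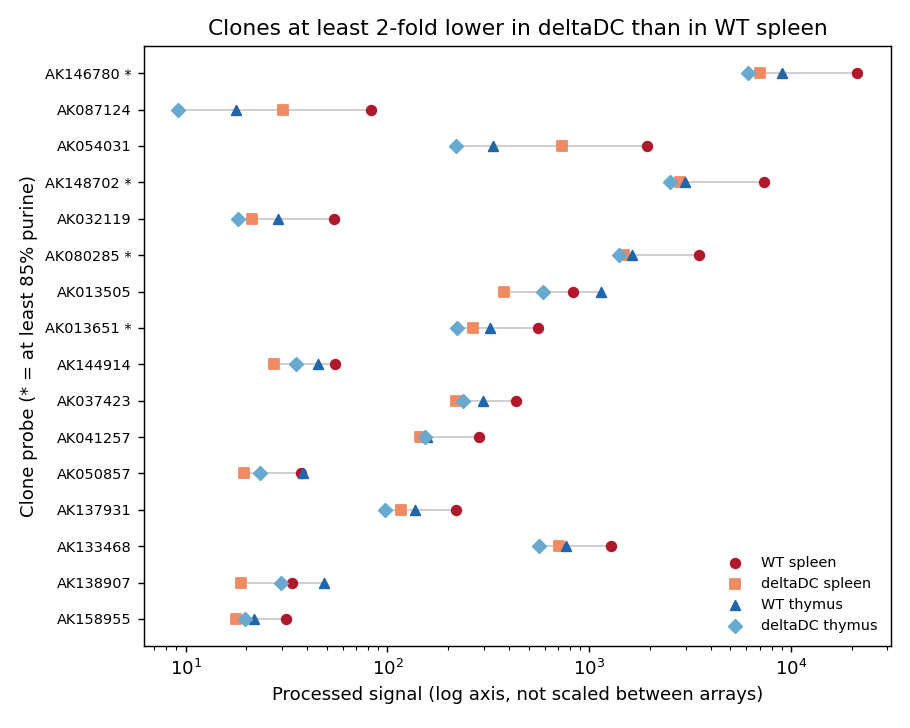
Processed signal (horizontal log axis, as scanned) of the 16 clone probes at least 2-fold lower on deltaDC than on WT spleen, with 1 point per array and a star for probes of at least 85% purine. WT spleen is the rightmost point in 13 of the 16, and AK013505, AK050857 and AK138907 read higher on WT thymus as scanned.

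On the higher side of the spleen comparison no measured clone reached 2-fold. AK044029, described as weakly similar to a dopamine receptor fragment, came closest, reading 32.7 (WT) and 68.7 (deltaDC) in spleen and 24.7 and 42.7 in thymus, with a spleen difference of 0.87 ± 0.30. AK079713, the thymus clone shown above, read 72.6, 130, 144 and 114, a spleen difference of 0.64 ± 0.19, and WT spleen was its lowest array. AK054361, from ovary, differed by 0.60 ± 0.11, AK038006, from neonatal thymus, by 0.56 ± 0.11, and AK014355 by 0.57 ± 0.38, which is less than 2 errors.

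Clones above background on a single spleen array were given as bounds, the bright signal against the higher of the other array's lowest well-above-background signal and the clone's own dim one. The largest bound belonged to AK007918, described as the immunoglobulin heavy chain of serum IgG2a (chr12:114525600-114525659, minus strand). It read 11.3 (WT, not well above background) and 295 (deltaDC) in spleen and 1005 and 2374 in thymus, and so was at least 22.6-fold higher on deltaDC spleen. In thymus, where both arrays measured it, the deltaDC minus WT difference was 1.20 ± 0.08, and between the deltaDC organs thymus was higher by 2.91 ± 0.10. Immunoglobulin is made by B cells and plasma cells. The summed signal of 4 B cell genes was 1763, 1924, 3454 and 6013, with 2 of the 4 well above background on WT spleen and all 4 on the others, and its part in the clone's values was not tested.

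The other named bounds rest on dim signals. AK077204, from testis, read 88.5 on deltaDC spleen, at least 6.87-fold above WT spleen (4.0, not well above background), and on thymus it read 11.2 in WT and 59.5 in deltaDC. AK140103 was at least 3.68-fold and AK139043 at least 4.77-fold higher on deltaDC spleen. In the other direction AK076852, from testis, read 37.7 on WT spleen and was not well above background on any other array, at least 7.28-fold lower on deltaDC spleen. It lies 7.53 kb 3′ of the probe of Cma1, the mast cell chymase, which was not well above background on WT spleen. AK157325, from activated spleen, was at least 4.38-fold lower, AK080325 at least 3.67-fold and AK041476 at least 2.58-fold.

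Between the thymus arrays clones differed little. Of 121 measured clones 1 (AK007918) was at least 2-fold higher on deltaDC, against 0.803% of all 26263 probes, and 2 were lower, against 0.872%, and the median difference was -0.09 beside 0.04 for all probes. The 3 became 5 with another 75th percentile and 7 in the deposited matrix. The 2 lower clones were AK163513, with signals of 274 on WT thymus and 113 on deltaDC thymus, and AK015717, with 256 and 119. Both were also the 2 clones at least 2-fold above every other array on WT thymus, since the spleen arrays read 105 (WT) and 75.2 (deltaDC) for AK163513 and 93.8 and 97.6 for AK015717. AK040896, a vascular clone, read 9851 on WT thymus and between 5407 and 5664 elsewhere, a thymus difference of -0.90 ± 0.08.

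On the higher side in thymus, AK011488, described as similar to a pseudouridine synthase, read 431 on WT and 827 on deltaDC, a difference of 0.90 ± 0.11. The 2 probes of AK038232, a clone of a T cell receptor delta variable region, lie next to each other (chr14:53874007-53874066 and chr14:53874067-53874126). The first read 56.9, 48.1, 81.8 and 110 and the second 33.3, 39.8, 46.8 and 85.05, so deltaDC thymus was the brightest array for both. Their thymus differences were 0.38 ± 0.19 and 0.82 ± 0.30. Of clones above background on 1 thymus array, AK144834 read 103 on deltaDC thymus and 3.7 to 4.1 elsewhere, at least 13.5-fold higher than on WT thymus, and AK086493 was at least 7.52-fold higher. AK046703 and AK047213 were above background on WT thymus only, at least 5.05-fold and 4.30-fold lower on deltaDC thymus.

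Between organs, clones were more often lower in thymus than in spleen in WT mice, and about evenly split in deltaDC mice. Of 115 clones measured on both WT arrays 13 (11.3%) were at least 2-fold lower in thymus, against 4.97% of all 25347 probes, and 3 were higher, against 4.83%, with a median of -0.34 beside -0.14 for all probes. At least 2-fold lower in thymus were also 507 of 4751 non-coding probes known by position and 68 of 832 cDNA clones under a symbol (8.17%). With normexp the 16 became 6, all lower, where 1.98% of all probes were lower and 2.66% higher. This comparison shares the WT spleen array with that of the genotypes in spleen. Of 119 clones measured on both deltaDC arrays 6 were at least 2-fold lower, against 5.35%, and 5 higher, against 4.68%, with a median of -0.10 beside -0.03. With normexp 3 of the 119 were lower, against 2.92% of all probes, and 2 higher, against 2.37%. AK041614, a neonatal thymus clone, was lower in thymus in both genotypes, with signals of 8602, 5869, 3142 and 2957 and organ differences of -1.71 ± 0.08 and -1.08 ± 0.08. AK080422, from cerebellum, was higher in thymus in both, with 102, 76.1, 254 and 246 and differences of 1.06 ± 0.15 and 1.60 ± 0.15. AK047917, from embryonic head, read 67.2, 107.1, 62.5 and 42.6, with organ differences of -0.36 ± 0.19 in WT and -1.42 ± 0.30 in deltaDC mice.

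The additive fit of genotype and organ over all 4 arrays (limma, 1 residual degree of freedom, Benjamini-Hochberg adjustment over 27972 probes, two-sided) called 0 of 126 clones for genotype and 1 for organ. For genotype 19 clones had an unadjusted p under 0.05, 15 of them negative, where 6% of all probes did (3.88% negative) and 0 were called after adjustment. The smallest adjusted p of a clone was 0.754. The organ call was AK038705, a hypothalamus clone named here because it was the only one. It was not well above background on WT spleen (3.47) or deltaDC spleen (3.14), and read 182 on WT thymus and 106 on deltaDC thymus, at least 13.6-fold higher in thymus of WT and 16.7-fold of deltaDC mice. Its adjusted p in the fit with limma was 0.039, but it entered the fit only through the thymus arrays and its spleen values are at background, so the call adds nothing to these bounds. After quantile scaling organ was called for 0 clones and for 0 of all probes. In the main fit, without quantile scaling, organ was called for 0.819% of all probes. Unadjusted, 21 clones had an organ p under 0.05, against 19.7% of all probes.

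Whether a clone follows its named neighbour was asked by pairing each clone with the nearest probe of a RefSeq mRNA on the same strand within 20 kb. Such a probe existed for 72 clones, and 71 had one on the other strand, while 184 had neither. A further check found 9 clones between probes of 1 gene, 4 that share an accession with a named gene's probe and 6 whose probe lies in a RefSeq promoter window (250 bases before to 50 after a gene's start, GRCm38.p6). Introns, exons and UTRs were not analysed here, since no annotation of mm9 was used, so only the order of the probes along the strand is given.

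Most clones had the sign of the same-strand gene in 3 of the 4 comparisons, and most had that of the other-strand gene in 3 as well. In spleen their median genotype difference was lower than that of the genes. In 33 pairs measured on both spleen arrays, 22 clones (66.7%) had the sign of the gene's genotype difference, with medians of -0.33 for the clones and -0.07 for the genes and a Pearson r of 0.41 across pairs. None of the 33 genes was 2-fold different, and 3 of the clones were. For genes on the other strand it was 11 of 18 (61.1%) with r of -0.08. In WT mice the organ difference had the gene's sign in 24 of 32 pairs (r of 0.48) on the same strand and in 9 of 18 on the other (r of -0.28), and in deltaDC mice in 22 of 32 (68.8%, r of 0.48) on the same strand and in 13 of 19 (68.4%, r of 0.12) on the other. The thymus genotype difference had it in 14 of 33 (42.4%) on the same strand and in 13 of 20 on the other. The share was thus higher for the same strand in 2 comparisons, about equal in 1 and lower in 1. The pairs share arrays and scaling, so r is a description only.

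Clones 5′ of the gene probe ran closer to the gene than those 3′ of it in the comparisons between organs. For 18 measured pairs with the clone on the 5′ side, r was 0.85 between the deltaDC organs, 0.63 between the WT organs and 0.48 for genotype in spleen. For 11 pairs with the clone on the 3′ side the deltaDC and WT organ values of r were 0.10 and 0.29, and for 12 pairs in the spleen comparison r was 0.32, although 10 of these 12 had the sign of the gene. The 5′ pairs are not all independent, since AK149472 and AK144717 are both paired with the BC021614 probe. Between the deltaDC organs that probe had the lowest gene value of the 5′ pairs, -0.98. The highest was Atp6v0a1 at 1.51, with its clone AK160358 at 1.39, so r leans on these pairs. The GT repeat clone AK149306 is also a 5′ pair. The difference between the 5′ and 3′ pairs was not tested.

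**Figure D5:**
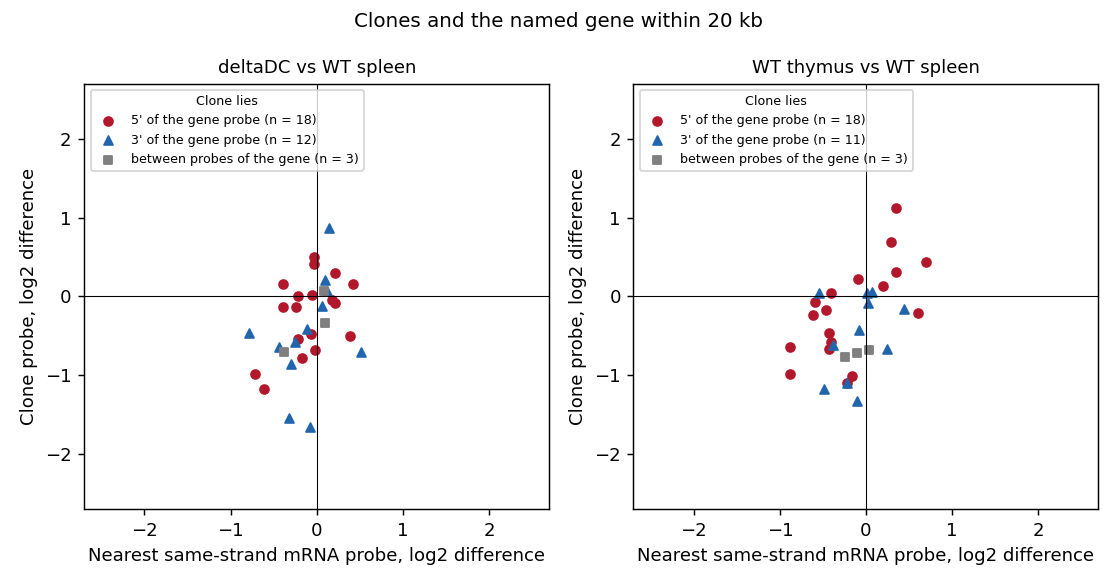
Log2 difference of each clone (vertical axis) against that of the nearest same-strand mRNA probe within 20 kb (horizontal axis), for genotype in spleen (left, 33 pairs) and for organ in WT mice (right, 32 pairs), by the clone's place along the strand. In the spleen panel no gene passes -1 or 1, while 3 clones lie below -1.

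A clone that ran with its gene was AK160358, 10.6 kb 5′ of the probe of Atp6v0a1, a subunit of the proton pump that acidifies vesicles. The clone read 87.6, 51.0, 142 and 142, and the gene 993, 695, 1931 and 2108. Both were lowest on deltaDC spleen and higher in thymus. The clone's differences were -0.98 ± 0.19 for genotype in spleen and 1.39 ± 0.19 between the deltaDC organs, and the gene's were -0.72 and 1.51. AK149472 and AK144717, which lie 2.08 kb apart on 1 strand and 6.49 and 4.41 kb 5′ of the BC021614 probe, also ran with it between organs. Their deltaDC organ differences were -1.25 and -0.95 beside -0.98 for the gene, and their WT ones -0.98 and -0.64 beside -0.88. In the spleen genotype comparison the clones were at 0.50 and 0.42 and the gene at -0.04.

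Other clones differed by more than the gene. AK087124 (chr1:141075439-141075498, plus strand) lies 8.36 kb 3′ of the probe of Dennd1b, a regulator of vesicle traffic, and read 82.8 on WT spleen and 30.2 on deltaDC spleen, with neither thymus array above background. Its difference was -1.65 ± 0.30, and that of Dennd1b -0.08. AK032119, 3.62 kb 3′ of the probe of the centriole gene Cep135, read 54.0 and 21.4 on the spleen arrays, -1.54 ± 0.30, where Cep135 was at -0.32. The AK032119 probe holds a simple repeat of C and A among those searched, though it shares no 20 bases with a distant probe. Whether RNA from other loci contributes to the signal of AK032119 was not tested. AK041257, 18.2 kb 5′ of the Efha2 probe, was at -1.17 where the gene was at -0.61. AK163513, 16.9 kb 5′ of the probe of Dhcr7, an enzyme of the last step of cholesterol synthesis, had a WT organ difference of 1.12 and Dhcr7 0.34.

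Of the 3 clones with 2 probes above background on all arrays, the probes of 2 gave like genotype differences in spleen at very different brightness. The probes of AK139292 read 301, 254, 310 and 254 and, at the adjoining position, 9217, 6926, 6937 and 5892, and their spleen genotype differences were -0.45 and -0.61. Those of AK141540 read 27.7, 30.3, 34.3 and 45.4 and 500.0, 549, 604 and 644, with spleen differences of -0.07 and -0.07. Other comparisons differed more: between the WT organs the AK139292 probes were at -0.21 and -0.67, and between the deltaDC organs the AK141540 probes were at 0.49 and 0.14. The third, AK038232 described above, had spleen differences of -0.44 ± 0.30 and 0.06 ± 0.38, whose error ranges overlap.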

How the data were processed

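The deposited files of each array hold Cy3 intensity from Agilent Feature Extraction 10.7.3.1 (per the file headers), background-subtracted and detrended within each array and not scaled between arrays, with other columns of flags. The authors also deposited a matrix of quantile-normalized log2 values, used as an alternative (column medians 4.10, 4.11, 4.15 and 4.10; highest r with the array of the same label, at least 0.998; the log base rests on its header and any offset is unknown). Spots flagged as outliers (110 to 168 per array) were removed; 0 were saturated. On the log2 scale the 75th percentile of each array was subtracted, and repeated spots were averaged. Probes well above background on both arrays were counted at 2-fold. Genotype plus organ was fitted with limma 3.58.1 (R 4.3.3) on probes that passed background on 2 or more arrays, and the fit was tested on simulated data. Groups came from the sample labels. RefSeq names and promoter windows came from GRCm38.p6 tables and were used for names and sequence matches only. Sequences were searched with Python 3.11.15.

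Clones named in the text are the 5 brightest, those with the largest margins of each array (5 for WT spleen, 3 for others), the 4 highest and lowest of each comparison, the largest bounds and the clones with the largest gap to their gene; others named were chosen after their values were seen. The clones, lists and rules were chosen with earlier results of these data known. The probe sequences of 2 purine-rich clones are not reported here.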

Additional observations from a re-analysis of the deposited data

How the results depend on the processing

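No paired analysis was possible because each group has 1 array and the labels carry no replicate numbers, and leaving out an array leaves no residual degree of freedom. The spleen genotype count of 16 clones was 14 to 18 under quantile scaling, another 75th percentile, the deposited matrix and a filter on all 4 arrays, 7 with normexp and 57 without a filter (14 higher, 43 lower); relative to the median of all probes it was 13. The thymus count of 3 was 5 with the 75th percentile over probes above background on all arrays, 7 in the matrix and 34 unfiltered. The WT organ count of 16 was 6 with normexp and 53 unfiltered, and the deltaDC organ count of 11 was 5 and 46. The 6 clones 2-fold above on WT spleen were 4 to 6 under the other scalings and the matrix, and 19 unfiltered, where 5 were 2-fold below. Unfiltered counts hold probes at background. The organ call was lost with quantile scaling and with the filter on all arrays, where 0 clones and 0 of all probes were called. Normexp gave 6 of 126 clones, where 974 of all 27972 probes were called. Genotype gave 0 clones and 0 of all probes in every fit. For genotype in spleen, clones had the sign of their gene in 58.8% to 66.7% of pairs over the distances and values tried. The count of purine probes 2-fold above on WT spleen, 34 of 59, was 31 to 34 under other scalings and 26 of 43 in the matrix; this check was added after the data had been seen. Signals under 50 had repeat-spot SDs of 0.27 to 0.37, which limits the dim clones.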

Other observations

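The GAA repeat of AK146780 and AK080285 also stands in probes listed under named genes. Of 16 RefSeq mRNA probes that hold GAAGAAGAAGAA and were measured on all arrays, WT spleen exceeded every other array by 2-fold or more in 10. They include a probe listed under Pigr, the receptor that carries IgA across epithelia, with signals of 14553 (WT) and 6070 (deltaDC) in spleen and 6760 and 5609 in thymus. The probe listed under Rhox8, a homeobox gene of the reproductive tract, read 20292, 8114, 8960 and 6232 in the same order. A probe listed under Gcm1, known from placenta, read 19279, 8578, 8661 and 6404. The dimmer probes of Pnma2 (240, 83.2, 132 and 86.1) and Akap7 (281, 137, 156 and 138) had the same order of spleen arrays, while that of Sec61b (25205, 32321, 24404 and 28078) did not. The Pigr probe is placed on chr14, and probes listed under Gcm1 are placed on chr7 and on chr5, so these cannot all lie at the same gene. The gene name of such a probe therefore need not be that of its place in the genome. A fold change under such a name is read from a probe that holds a repeat, and whether it follows the named gene's transcript was not tested.

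The pyrimidine dinucleotide repeat stood on the other side. Of 20 probes that hold TCTCTCTCTCTC, all above background on every array, 2 were brightest on WT spleen, and the median log2 difference of deltaDC minus WT spleen was 0.68, from -0.55 to 1.14. Of 21 probes that hold GAGAGAGAGAGA and were above background on every array, 18 were brightest on WT spleen, with a median of -1.79. Some of these probes also hold the GAA run. Between the thymus arrays the medians were 0.12 and -0.44.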
